A study of Homo sapiens with 20 samples.

Results

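The regions described here are the open-chromatin peaks of the ATAC-seq libraries labelled PC9, one from Mock-treated and one from decitabine-treated cells. They were taken as every peak that the authors' peak caller listed for either sample, 71204 in the Mock library and 91061 in the decitabine (DAC) library, which is 162265 of the 591387 peaks listed over the 8 ATAC-seq libraries of the study. The study compared chromatin accessibility and mRNA in human lung cancer cell lines before and after low-dose DAC. Omni-ATAC-seq was run on libraries labelled A549, H1299, CL1-5 and PC9, and mRNA-seq on these lines and on CL1-0 and H1792. All of them are established human lung cancer lines, and PC9 and CL1-5 are lung adenocarcinoma lines. All lines were grown in RPMI-1640 with serum. Mock cells were not given DAC, and the study names PBS as the Mock treatment. DAC cells were given 100 nM DAC for 72 hours and then 3 days without the drug. Each line and treatment was represented by 1 library, so there is no replicate on either side. No test and no error between replicates can be given for any difference below, and the intervals in brackets cover counting error only. The number of reads in each library is not given with the peak lists, so its depth is unknown.

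ATAC-seq uses a transposase that cuts and tags DNA where it is free of nucleosomes, so that reads pile up at active promoters and enhancers. Decitabine is a cytidine analogue that is built into DNA and traps the DNA methyltransferases, and methylation is lost as the cells divide. Many germline genes, among them the cancer testis antigens, are held silent in somatic cells by methylation of their promoters. AP-1 factors bind a short palindromic core at many enhancers, and CTCF binds insulators and loop anchors.

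The name of the deposited file of both libraries gives CL1-5 where the sample label gives PC9, and the reverse is true of the libraries labelled CL1-5. The labels were therefore checked against the mRNA before anything else. In the Mock mRNA, 80 genes had an FPKM (a level scaled to transcript length and library size) of at least 5 in CL1-5 and under 0.1 in PC9. A promoter peak, a peak listed for the gene within 3000 bp of a transcription start site (TSS), was found at 87.5% of them in Mock cells labelled PC9 (95% exact binomial interval 78.2 to 93.8%) and at 62.5% in Mock cells labelled CL1-5. Of 143 genes with the opposite pattern, 51.7% (43.2 to 60.2%) had one in Mock cells labelled PC9 and 92.3% in those labelled CL1-5. The DAC libraries gave the same order, with 88.8% and 61.5% of both sets in the library labelled PC9. Over all 19148 genes with a symbol in both kinds of file, 73.3% had a promoter peak in Mock and 76.9% in DAC. The marker genes of both lines thus went against the label, and the libraries are called "labelled PC9" throughout.

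**Figure D1:**
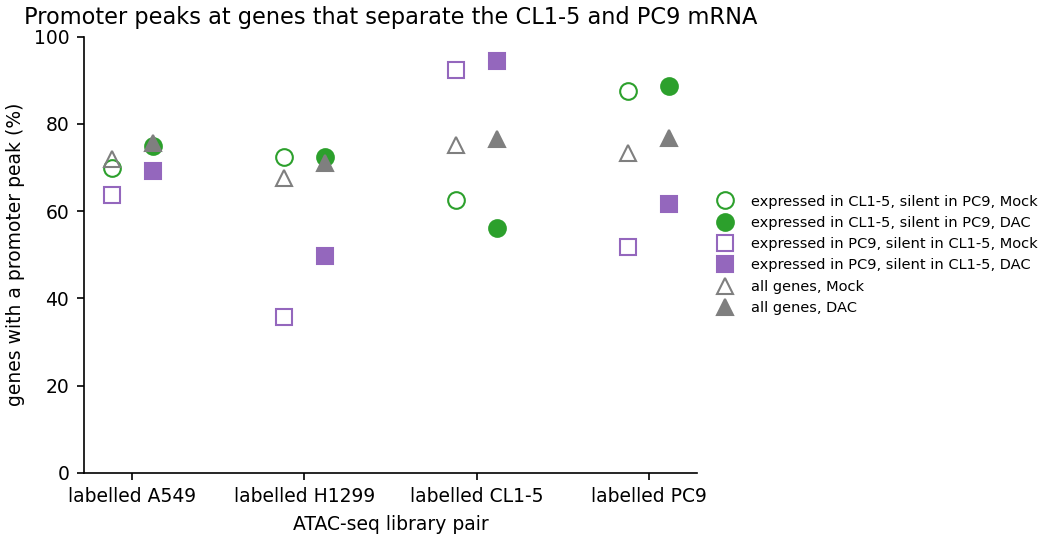
Share of genes with a promoter peak (y axis, percent) in each pair of ATAC-seq libraries (x axis), for genes expressed in 1 of the CL1-5 and PC9 mRNA libraries and silent in the other, and for all genes. Open symbols are Mock and filled symbols DAC libraries; the libraries labelled PC9 are highest at CL1-5-expressed genes (87.5% and 88.8%), and those labelled CL1-5 at PC9-expressed genes (92.3% and 94.4%).

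Across the 19148 genes, the rank correlation between the highest promoter fold enrichment and the FPKM was a description over genes, which are not replicates. For the Mock library labelled PC9, Spearman's coefficient was 0.504 with the CL1-5 Mock mRNA, the highest of the 6 lines, and 0.441 with the PC9 Mock mRNA, the lowest. For the Mock library labelled CL1-5, the coefficient was highest with the PC9 mRNA, at 0.462. The measure did not single out the line in each pair, since the Mock library labelled H1299 had 0.510 with its own mRNA and 0.518 with that of CL1-0. Chromosome 9 showed the same discordance, in a stretch chosen after its values were seen. From MTAP to DMRTA1 (chr9:21802635-22455739, hg19), which holds the cell-cycle inhibitor gene CDKN2A, the Mock library labelled PC9 had 1 peak and the DAC library 0, whereas the 6 other libraries had between 8 and 21. In the mRNA, CDKN2A was listed at 0 in both CL1-5 libraries and had an FPKM of 21.7 in PC9 Mock and 16.1 in PC9 DAC. MTAP, a methionine salvage enzyme, had an FPKM of 0.0328 in CL1-5 Mock and 3.29 in PC9 Mock. A549 mRNA also had CDKN2A at 0 and MTAP at 0.0415, and its Mock library had 8 peaks in the stretch.

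Of the cell type markers, the epithelial list differed between the labels and the mesenchymal list did not. The libraries labelled PC9 had promoter peaks at 12 of 12 mesenchymal genes, as did those labelled CL1-5, among them VIM, an intermediate filament protein, and ZEB1 and SNAI2, repressors of epithelial genes. The summed FPKM of these 12 genes was 742 in CL1-5 Mock and 156 in PC9 Mock. VIM had a fold enrichment (signal over the local background, as the peak caller gives it) of 6.52 in Mock and 6.06 in DAC. Of 15 epithelial genes, 9 had a promoter peak listed in Mock and 13 in DAC, against 15 and 14 in the libraries labelled CL1-5. Their summed FPKM was 145 in CL1-5 Mock and 3057 in PC9 Mock. EPCAM, KRT18, RAB25 and SPINT1 were listed only in DAC but had a peak in both libraries when all transcript starts were read, which gave 13 of 15 with a peak in both and left GRHL2, an epithelial transcription factor, as the member with a peak only in DAC. Single genes went the other way. CEACAM6, an epithelial adhesion molecule with an FPKM of 409 in PC9 Mock and listed at 0 in CL1-5 Mock, had a promoter peak of 5.51 in Mock and 4.40 in DAC here and none in the Mock library labelled CL1-5. Of 6 leukocyte genes, 2 had a promoter peak in both libraries, and their summed FPKM was 0.393 in CL1-5 Mock.

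The sequences below come from the GRCh37 reference (hg19) and show the kinds of region on which the comparisons rest. The first set holds stretches of promoter peaks that were listed only in the DAC library at germline genes whose mRNA was higher after DAC, written on the gene's strand and free of annotated exons, with each CpG, the site of methylation, in capitals.
DAZL (chr3:16647983-16648142, minus strand): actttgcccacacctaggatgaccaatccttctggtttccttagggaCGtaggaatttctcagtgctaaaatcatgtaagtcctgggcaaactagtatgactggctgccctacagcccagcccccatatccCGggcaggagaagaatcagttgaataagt
PNMA5 (chrX:152160995-152161154, minus strand): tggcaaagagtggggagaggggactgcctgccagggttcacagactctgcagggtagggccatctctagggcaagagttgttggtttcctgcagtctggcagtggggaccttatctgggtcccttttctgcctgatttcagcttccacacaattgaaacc
MAGEB2 (chrX:30233519-30233678, plus strand): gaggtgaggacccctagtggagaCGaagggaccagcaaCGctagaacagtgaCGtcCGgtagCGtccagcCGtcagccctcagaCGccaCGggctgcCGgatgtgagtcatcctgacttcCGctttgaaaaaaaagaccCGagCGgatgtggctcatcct
SSX1 (chrX:48114576-48114735, plus strand): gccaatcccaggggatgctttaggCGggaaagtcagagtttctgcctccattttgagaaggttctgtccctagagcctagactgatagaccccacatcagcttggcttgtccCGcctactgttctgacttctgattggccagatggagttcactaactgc
PAGE5 (chrX:55247085-55247244, plus strand): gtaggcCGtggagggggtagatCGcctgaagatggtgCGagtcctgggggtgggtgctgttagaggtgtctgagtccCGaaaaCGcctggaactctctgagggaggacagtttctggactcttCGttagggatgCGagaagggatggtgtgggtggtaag
The 5 stretches are 160 bases each and differ in CpG content. That of MAGEB2 held 12 CpG and that of PAGE5 held 7. Those of DAZL and SSX1 held 2 each, and that of PNMA5 held 0.

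The second set shows the strongest distal peaks, over 3000 bp from a TSS, that held the letters TGANTCA outside exons. These letters are a loose form of the AP-1 core, with any base (N) in the middle. Each stretch has 100 bases of the plus strand, with each match in capitals. The peak nearest F11-AS1 was listed only in Mock, that nearest WDR11 only in DAC, and that nearest ANKRD18DP in both.
F11-AS1 (chr4:187387540-187387639): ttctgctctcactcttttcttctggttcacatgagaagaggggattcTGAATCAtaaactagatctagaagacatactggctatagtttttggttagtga
WDR11 (chr10:122829134-122829233): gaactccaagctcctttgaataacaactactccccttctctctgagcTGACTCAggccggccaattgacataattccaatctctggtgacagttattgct
ANKRD18DP (chr3:197798871-197798970): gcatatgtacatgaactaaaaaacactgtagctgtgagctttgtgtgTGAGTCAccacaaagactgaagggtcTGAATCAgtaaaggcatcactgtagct
The fold enrichment was 20.9 for the F11-AS1 peak in Mock, 18.5 for the WDR11 peak in DAC and 14.9 for the ANKRD18DP peak in Mock.

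The first comparison asked which peaks the libraries shared. A peak was shared when at least 1 bp overlapped a peak of the other list. Of the DAC peaks, 39444 had no overlap in Mock, which is 43.3% of the list. Of the Mock peaks, 19254 had no overlap in DAC, which is 27.0%. In the libraries labelled A549, H1299 and CL1-5 the same shares were 44.2%, 49.1% and 38.6% for DAC and 25.8%, 28.3% and 29.7% for Mock, so the libraries labelled PC9 lay inside the range of the others on both sides. When the DAC list was cut to its 71204 peaks with the highest −log10 p, 32.8% of DAC and 32.3% of Mock peaks were without overlap. With lists of equal length both shares must be close to each other, so this step says nothing on which treatment had more peaks of its own.

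Peaks of 1 list were mostly weak ones. Each list was divided by −log10 p into 10 parts of equal size. In the weakest part of the DAC list 85.2% were without overlap in Mock, and in the strongest part 0.824%. In the Mock list the share fell from 66.9% in the weakest to 0.365% in the strongest part. The median fold enrichment was 2.999 for peaks only in DAC and 3.92 for DAC peaks that were shared. In Mock the medians were 3.19 and 4.39.

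Peaks of 1 list were also narrower. The median width was 376 bp for peaks only in DAC (quartiles 265 and 590 bp) and 679 bp for shared DAC peaks (426 and 1016 bp). In Mock the medians were 321 bp and 594 bp. Peaks only in DAC covered 18.6 Mb in all and peaks only in Mock 7.64 Mb. Where 1 Mock peak overlapped exactly 1 DAC peak, in 50634 pairs, the fold enrichment was lower in DAC in 75.3% and the median ratio of DAC to Mock was 0.902. The DAC peak was the wider in 58.8% of these pairs, with a median of 674 bp against 595 bp. The ratio was between 0.899 and 0.957 in the other 3 pairs of libraries. Shared peaks were therefore flatter and broader after DAC in the libraries labelled PC9, and a lower ratio was also listed for the other pairs.

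Few of the peaks of 1 list were at promoters. Of the peaks only in DAC, 10.5% lay within 3000 bp of a TSS, and of those only in Mock 9.03%, whereas 32.8% of the shared DAC peaks and 32.7% of the shared Mock peaks did. A TSS was overlapped by 2.01% of the peaks only in DAC and by 24.3% of the shared DAC peaks. The median distance to the nearest TSS was 23526 bp for peaks only in DAC and 27640.5 bp for peaks only in Mock, against 11954 and 11953.5 bp for shared peaks. By annotation, 40.6% of the peaks only in DAC were in distal intergenic sequence, 37.8% in introns and 6.65% in exons. The order of the promoter shares of the 1-list peaks depended on the ranking. With equal numbers by −log10 p, 11.2% of the peaks only in DAC and 9.61% of those only in Mock were within 3000 bp, and with equal numbers by fold enrichment 8.02% and 13.8% were.

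Over the chromosomes, the share of DAC peaks found only in DAC ran from 32.8% on chromosome X to 47.5% on chromosome 8. For Mock peaks it ran from 19.6% on chromosome 19 to 31.3% on chromosome 5. The genes nearest to most 1-list peaks had them in both lists, in unequal numbers. Over the whole lists 39444 peaks were only in DAC and 19254 only in Mock, so more peaks only in DAC were the usual state. FAM135B was the nearest gene of 49 peaks only in DAC and of 23 only in Mock, TENM2, a teneurin adhesion protein, of 42 and 23, and PTPRU, a receptor tyrosine phosphatase, of 34 and 24. RREB1, a zinc finger factor, was the nearest gene of 30 and 5, and SPRED2, an inhibitor of the Ras pathway, of 33 and 10.

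The peaks were then looked for in the 6 libraries with other labels. Of the peaks only in DAC, 42.6% had no overlap in any of them, 35.5% were in at least 1 of the other Mock libraries, and 21.9% were in other DAC libraries alone. Of the peaks only in Mock, 49.7% had no overlap in the 6, 35.0% were in another Mock library, and 15.3% were in other DAC libraries alone. For shared DAC peaks these shares were 9.45%, 81.8% and 8.72%, and for shared Mock peaks 9.87%, 81.2% and 8.88%. The pattern of a peak in all 4 DAC libraries and in none of the Mock libraries was met by 438 of the 39444 peaks only in DAC, 60 of which were within 3000 bp of a TSS. Of the 19254 peaks only in Mock, 56 were in all the other DAC libraries and in no other Mock library. The DAC list was the longer in every pair, which favours overlap with DAC libraries.

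The strongest peaks of 1 list were found in both directions and mostly in no other library. A fold enrichment of at least 16 was reached by 8 peaks only in DAC and by 6 only in Mock, and 6 of the 8 and 6 of the 6 had no overlap in the 6 other libraries. Among shared peaks 19 reached it in Mock, of which 10 were in none of the 6. In DAC the strongest were in an intron nearest STAU2-AS1 (chr8:74382254-74382606, 21.0), in an intron nearest PGAM4 (chrX:77280377-77281045, 20.8) and in an intron nearest CDH17 (chr8:95159828-95160417, 19.2). The PGAM4 peak was listed in 5 other libraries at fold enrichments of 2.96 to 4.71, the others in none. In Mock they were the F11-AS1 peak (chr4:187387413-187387718, 20.9), an intron peak nearest TGFBR3, a coreceptor of transforming growth factor beta (chr1:92237468-92237919, 20.3), and an intron peak nearest PCYT1A (chr3:196024765-196025083, 20.2). None of these 3 was listed in another library.

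At promoters, the strongest peak only in DAC was listed for LINC01366 (chr5:169760828-169761476) at a fold enrichment of 16.9, and in no other library. The next was at CLEC14A, an endothelial C-type lectin gene (chr14:38724670-38725525), at 8.94. It was listed in 5 other libraries, up to 20.6 in the Mock library labelled H1299, and the CLEC14A mRNA was at 0 in both CL1-5 and both PC9 libraries. UTP4, a ribosome biogenesis factor, followed TUBA8, an alpha-tubulin, with 8.17 against 8.72. Its FPKM was 21.7 in CL1-5 Mock and 31.1 in CL1-5 DAC, and 16.3 and 14.4 in PC9. TPTE2P1, CCL1, LINC01002 and MYO1H had peaks only in DAC of 7.28 to 7.99. Of the promoter peaks only in Mock, that of OR2T1, an olfactory receptor gene, was the strongest at 13.1, followed by those of ARHGAP18 at 10.9 and ZFAND6 at 10.7. ARHGAP18 had an FPKM of 0.119 in CL1-5 Mock and 0.674 in CL1-5 DAC, and of 3.32 and 3.05 in PC9. ZC3H12A, AQP7P3, BCAT1, POGZ and GCG had peaks of 8.58 to 9.01. These classes are of single peaks, and a gene can have another promoter peak in the other library. UTP4 was not among the genes that had a promoter peak only in DAC by both readings given below. The FPKM of UTP4, with this peak only in DAC, and of ARHGAP18, with its peak only in Mock, was higher after DAC in CL1-5 and lower in PC9. Several of the other genes had no matched mRNA value or an FPKM at or near 0, so no direction can be read for the group.

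The base composition of the peaks was read in 300 bases round the middle of each. Distal peaks only in DAC had a median GC content of 53.0%, those only in Mock 50.3% and shared DAC peaks 53.7%. At least 10 CpG were held by 14.1% of the distal peaks only in DAC, by 7.22% of those only in Mock and by 20.4% of the shared ones. Within 3000 bp of a TSS, the median was 6 CpG for peaks only in DAC, 5 for those only in Mock and 25 for shared DAC peaks. At promoters, therefore, the peaks of 1 list were CpG-poor on both sides.

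Motif cores were searched as plain letters on both strands of these windows. The AP-1 core was searched as TGANTCA, a loose form with any base in the middle. Matches such as TGAATCA were not counted apart from TGACTCA and TGAGTCA. The searched core was found in 10.99% of the distal peaks only in DAC and in 18.5% of those only in Mock. It was in 21.4% of the shared DAC and in 22.8% of the shared Mock peaks. Over all distal peaks the share was 21.4% in Mock and 16.1% in DAC. The difference between 1-list peaks grew with peak strength. At a −log10 p under 3.5 the core was in 9.40% of 13570 distal peaks only in DAC and in 11.6% of 6405 only in Mock. At 8 or more it was in 15.4% of 928 and 41.3% of 980. At the same strength, 31.3% of the shared Mock and 26.8% of the shared DAC peaks held it.

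**Figure D2:**
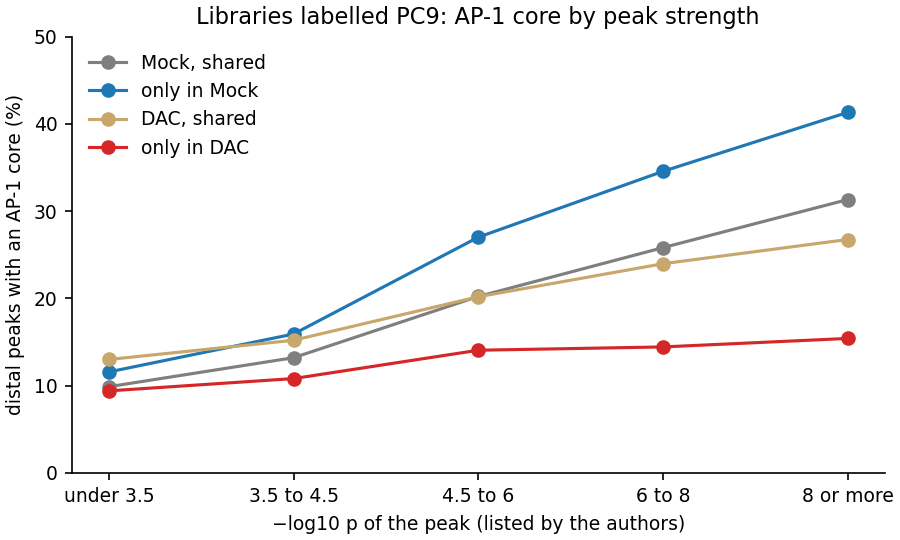
Share of distal peaks with an AP-1 core, searched as TGANTCA, in the middle 300 bases (y axis, percent) by the listed −log10 p of the peak (x axis) in the libraries labelled PC9. Blue, only in Mock, climbs from 11.6% to 41.3%; red, only in DAC, goes from 9.40% to 15.4%; shared peaks lie between them in the 4 stronger bands.

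The order was the same in the pairs labelled H1299 and A549 and reversed in the pair labelled CL1-5. At a −log10 p of 8 or more, the core was in 27.9% of the distal peaks only in Mock and in 7.76% of those only in DAC in the libraries labelled H1299, in 19.7% and 16.9% in those labelled A549, and in 26.9% and 30.4% in those labelled CL1-5. A CTCF core was found in 3.55% of the distal peaks only in DAC, 4.54% of those only in Mock, 7.74% of shared DAC peaks and 5.63% of all distal DAC peaks. For the TEAD core GGAATG these shares were 17.1%, 19.5%, 18.3% and 17.7%. For the RUNX core TGTGGTT they were 5.40%, 6.58%, 6.16% and 5.77%, and for the FOX core TGTTTAC 4.34%, 3.88%, 4.60% and 4.47%. Differences between 1-list peaks were smaller for these cores than for AP-1. At promoters, the ETS core CCGGAAG was in 2.71% of the peaks only in DAC, 2.95% of those only in Mock and 11.7% of shared DAC peaks. Over all promoter peaks of the DAC list it was in 9.92%. No 2 of these cores are the same letters, but a window can hold several. A match is a run of letters and not a bound site.

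The next comparison asked whether genes that gained a listed promoter peak had more mRNA after DAC. Because the line is in doubt, both the CL1-5 and the PC9 mRNA are given. By the gene that the authors' annotation lists for each peak, 13376 genes had a promoter peak in both libraries, 1343 only in DAC (7.01%), 668 only in Mock (3.49%) and 3761 in neither. The listed gene is the one with the nearest TSS, so a peak at a shared promoter can be listed for either neighbour. When any peak within 3000 bp of any GENCODE transcript start of a gene was counted instead, a reading added after the values were seen, 731 of the 1343 genes kept a peak only in DAC, 585 had one in both, and 277 of the 668 kept one only in Mock. Over all genes, 69.9% had a peak in both libraries by listed gene and 81.8% by transcript starts, and 73.3% and 83.6% had one in Mock.

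Genes with a promoter peak only in DAC were mostly silent. Their median FPKM was 0.0557 in CL1-5 Mock and 0.114 in CL1-5 DAC, and 0.0775 and 0.202 in PC9, whereas genes with a peak in both had medians of 3.12 and 3.005 in CL1-5. On the log2(FPKM + 0.1) scale, 159 of the 1343 genes (11.8%) were at least 2-fold higher in DAC than in Mock in CL1-5, beside 4.95% of all genes. In PC9, 154 (11.5%) were, beside 7.05% of all genes. The same genes also exceeded all genes in the mRNA of the other lines. The shares were 18.3% beside 10.3% in A549, 15.7% beside 10.2% in H1299, 10.8% beside 7.21% in H1792 and 6.03% beside 3.17% in CL1-0. The excess over all genes was thus not particular to CL1-5 or PC9 mRNA. It was smaller beside the other genes without a peak in both libraries. Of genes with a peak in neither, 13.1% were 2-fold higher in A549, 15.4% in H1299, 8.80% in H1792 and 4.47% in CL1-0. Of those with a peak only in Mock, 10.8%, 14.5%, 7.78% and 4.19% were. At least 2-fold lower were 26 in CL1-5 and 11 in PC9, against 1.67% and 0.799% of all genes. Of genes with a promoter peak only in Mock, 5.99% were 2-fold higher in CL1-5 and 8.68% in PC9. Of those with a peak in neither library, 5.77% and 9.17% were. By transcript starts, 13.0% of 901 genes only in DAC were 2-fold higher in CL1-5 and 14.2% in PC9. By that reading the shares were 6.82% and 11.9% of genes only in Mock, and 7.54% and 11.3% of genes in neither.

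Part of this went with low mRNA. Among genes under 0.1 FPKM in Mock, 14.3% of those with a promoter peak only in DAC were at least 2-fold higher in CL1-5 after DAC, beside 8.66% of all such genes, 8.89% of those with a peak in both and 6.21% of those with a peak only in Mock. In PC9 the share was 13.5% beside 12%, 12.7% and 11.03%. Restricted to silent genes, then, the share stood above the other classes in the CL1-5 mRNA and close to them in the PC9 mRNA. The median change of the 1343 genes was 0.014 in CL1-5 and 0.053 in PC9 on the log2 scale. After a filter of a mean FPKM of at least 0.1, which a gene raised by DAC passes more easily, it was 0.10 in 674 genes for CL1-5 (95% interval of the median 0.05 to 0.13) and 0.13 in 728 genes for PC9 (0.07 to 0.19), with 0.011 and 0.020 over all genes.

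The same tables were read from the mRNA. Of the 947 genes at least 2-fold higher in CL1-5, 56.1% had a promoter peak in both libraries labelled PC9, 16.8% only in DAC, 4.22% only in Mock and 22.9% in neither. Of the 1350 in PC9, these shares were 58.7%, 11.4%, 4.30% and 25.6%. Over all genes, 69.9% had a peak in both, 7.01% only in DAC, 3.49% only in Mock and 19.6% in neither. Genes higher after DAC thus had a peak in both less often than all genes and a peak only in DAC or in neither more often, with no test.

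Genes that were higher in both lines were led by germline genes. Of the 159 genes, 58 were also at least 2-fold higher in PC9, and 37 of these had a peak only in DAC by both readings. The share of all genes that were higher in both lines is not given. These counts therefore have no background and show no trait of this class of genes. In 24 of the 37, a peak near a transcript start was also listed for Mock cells labelled CL1-5. This was no more than usual, since 75.2% of all genes had a promoter peak there by listed gene. The cancer testis and germline list, with 32 of the 19148 genes, held 7 of the 37: PNMA5, DAZL, MAGEB2, PAGE5, SSX1, MAGEB1 and SYCP3.

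PNMA5, of the paraneoplastic antigen family, was listed at an FPKM of 0 in Mock and 7.32 in DAC in CL1-5, and at 0 and 16.3 in PC9. Its peak had a fold enrichment of 2.93 in the DAC library labelled PC9, and peaks of 2.63 and 2.703 were listed in the Mock and DAC libraries labelled CL1-5. DAZL, a germ cell RNA-binding protein, was at 0 and 7.25 in CL1-5 and at 0.0265 and 10.6 in PC9. Its peak of 3.90 lay at -794 bp from the TSS, and both libraries labelled CL1-5 had a peak listed, at 6.83 and 6.46. A DAZL peak of 3.25 was also listed in the Mock library labelled A549 and none in the DAC library of that label. Both genes were thus off in both Mock mRNA libraries and on in both DAC libraries. The PNMA5 peak was also listed in the DAC library labelled A549, at 3.95, and not in its Mock library.

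MAGEB2, an X-linked cancer testis antigen, was at 0.756 in Mock and 10.97 in DAC in CL1-5, and at 0 and 9.98 in PC9. Its peak over the TSS was listed at 4.10 in the DAC library labelled PC9, and by transcript starts at 4.52, 4.07 and 7.07 in the DAC libraries labelled CL1-5, H1299 and A549. No Mock library had it. SSX1, another X-linked cancer testis antigen, was at 0 and 6.85 in CL1-5 and at 0.0371 and 1.365 in PC9, with a peak of 4.39. PAGE5 was at 0 and 5.27 in CL1-5 and at 0 and 2.33 in PC9, with a peak of 2.89. The SSX1 and PAGE5 peaks were listed in neither library labelled CL1-5 and in none of the Mock libraries. MAGEB1 was at 0 and 0.565 in CL1-5 and at 0 and 1.32 in PC9, with peaks of 3.12 and 3.65 in the DAC libraries labelled PC9 and CL1-5. A MAGEB1 peak was also listed in the Mock library labelled H1299, at 2.995. SYCP3, a synaptonemal complex protein, was at 0.0289 and 0.592 in CL1-5 and at 0.0251 and 0.181 in PC9.

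**Figure D3:**
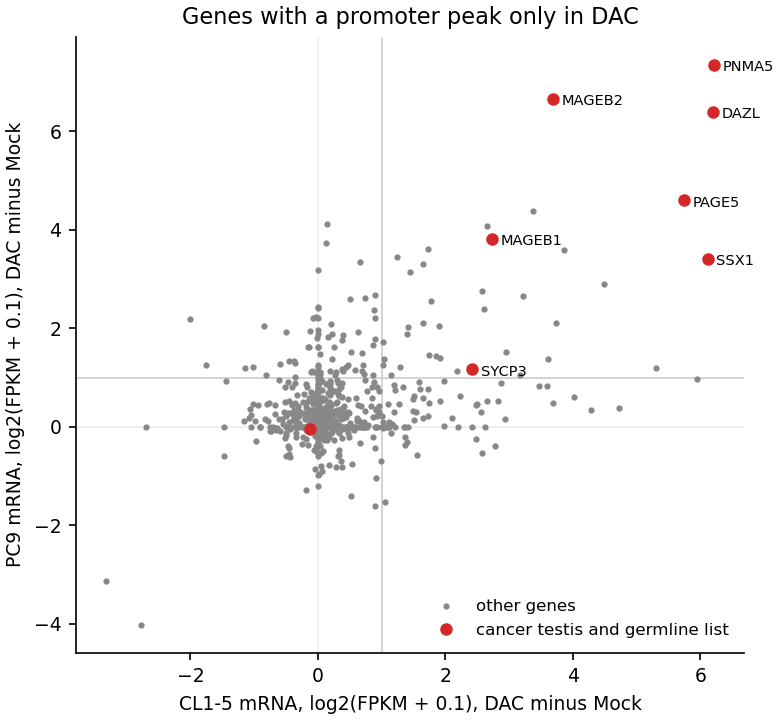
Change after DAC on the log2(FPKM + 0.1) scale in the CL1-5 mRNA (x axis) and the PC9 mRNA (y axis) for the 731 genes with a promoter peak only in DAC by both readings; each point is 1 gene, red points are members of the cancer testis and germline list, and the lines at 1 mark 2-fold. Of the genes, 37 are past 2-fold higher in both, 64 in CL1-5 alone, 69 in PC9 alone and 561 in neither. The share of all genes higher in both lines is not given beside these counts. PNMA5, DAZL, PAGE5, SSX1 and MAGEB2 lie farthest to the upper right.

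Over the whole cancer testis and germline list, 32 of 34 members were matched. By listed gene, 5 had a promoter peak in both libraries, 9 only in DAC, 3 only in Mock and 15 in neither. The shares of all genes in these classes were 69.9%, 7.01%, 3.49% and 19.6%. By transcript starts the numbers were 8, 11, 3 and 10, beside 81.8%, 4.71%, 1.76% and 11.7% of all genes. In the mRNA, 21 were at least 2-fold higher after DAC in CL1-5 and 21 in PC9, beside 4.95% and 7.05% of all genes. A peak was not a condition for more mRNA. GTSF1, a factor of the piRNA pathway, went from 0.0146 to 6.07 in CL1-5 and was listed at 0 and 8.92 in PC9, with no promoter peak in either library by either reading. PAGE2 was at 0 in both Mock libraries, at 3.99 in CL1-5 DAC and at 5.69 in PC9 DAC, also with none. Conversely SYCE1, a synaptonemal complex protein, had a peak of 3.44 only in DAC and an FPKM of 0.0635 and 0.0506 in CL1-5. CTAG2, PIWIL2 and TDRD1 had a peak only in Mock. CTAG2, a cancer testis antigen of the NY-ESO family, had an FPKM of 135 in CL1-5 Mock and 120 in CL1-5 DAC, with a peak of 3.39 in Mock. Several members of the MAGE, PAGE and GAGE families are near-identical copies, so their reads and peaks may be split between copies or lost.

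Other genes with a peak only in DAC that were higher in both lines included ST8SIA6-AS1, an antisense RNA, which was listed at 0 in both Mock libraries, at 0.937 in CL1-5 DAC and at 1.99 in PC9 DAC. SAA1, an acute-phase protein, was at 0 and 1.35 in CL1-5 and at 0.440 and 6.38 in PC9, with a peak of 2.82 that lay 1635 bp downstream of the TSS. Of the other genes with a peak only in DAC by both readings, 3 were picked after their values were seen. TEX11, a meiosis gene, was at 0 and 2.14 in CL1-5 and at 0.0143 and 0.756 in PC9. COL6A3, a collagen VI chain, went from 2.99 to 19.4 in CL1-5 and from 0.0196 to 1.93 in PC9. IFITM1, an interferon-induced membrane protein, went from 0.649 to 29.4 in CL1-5 and from 0.223 to 0.640 in PC9. MT1L, a metallothionein pseudogene with close copies beside it, was at 0 and 22.8 in CL1-5 and at 0 and 3.57 in PC9, but by transcript starts it had a peak in both libraries, of 3.29 in Mock and 2.76 in DAC.

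In CL1-5 alone, 101 of the 159 genes were at least 2-fold higher. In PC9 Mock, 38 of these 101 had an FPKM of at least 1, where the median of all genes was 1.67. A promoter peak in Mock cells labelled CL1-5 was listed for 65 of the 101, beside 75.2% of all genes. TUBA3D, an alpha-tubulin, had a peak of 4.75 over its TSS and went from 0.139 to 14.6 in CL1-5 and from 0.542 to 1.16 in PC9. QPRT, an enzyme of NAD synthesis, went from 0.0405 to 2.17 in CL1-5 and was at 46.7 and 71.3 in PC9, with a peak of 3.56 here and of 3.81 and 4.59 in the libraries labelled CL1-5. S100P, a calcium-binding protein, went from 0.0288 to 2.41 in CL1-5 and was at 27.5 and 34.9 in PC9, with a peak of 2.75. Both genes thus had mRNA in PC9 before treatment and a promoter peak in Mock and DAC cells labelled CL1-5. PNLDC1, a nuclease that trims piRNAs, had a peak of 3.79 here and, by transcript starts, one of 5.49 in the DAC library labelled CL1-5. It went from 0.0167 to 1.40 in CL1-5 and was at 0 and 0.0392 in PC9. ETV7, an ETS factor, was at 0 and 1.11 in CL1-5, and GPAT2, an acyltransferase, went from 0.0260 to 3.24. VAMP8, a SNARE protein of vesicle fusion, and GLMP, a lysosomal membrane protein, had peaks in both libraries by transcript starts.

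Interferon response genes had more mRNA after DAC in CL1-5, and most had a promoter peak before treatment, which is the usual state of all genes. Of 29 members, 26 had at least 2-fold more mRNA after DAC in CL1-5 and 6 in PC9, beside 4.95% and 7.05% of all genes. The summed FPKM of the 29 was 361 and 3137 in CL1-5 and 46.2 and 66.5 in PC9. By listed gene 24 had a promoter peak in both libraries labelled PC9, 0 only in DAC, 3 only in Mock and 2 in neither. By transcript starts 26 had one in both, IFI44 only in DAC and OAS1 only in Mock. Over all genes, 73.3% had a peak in Mock by listed gene and 83.6% by transcript starts. OAS1, which makes the activator of RNase L, had a peak of 5.06 in Mock and none listed in DAC. Its FPKM was 2.63 in Mock and 32.7 in DAC in CL1-5, and 1.04 and 0.541 in PC9. IFIT2 and IFI27 had a peak only in Mock by listed gene and in both by transcript starts.

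Genes of recognition by gamma delta T and NK cells had promoter peaks in both libraries in 24 of 27, beside 69.9% of all genes. RAET1L and ICAM2 had one only in DAC, by both readings. RAET1L, a ligand of the NK receptor NKG2D, had a peak of 2.76 and an FPKM of 3.10 in Mock and 5.05 in DAC in CL1-5, and of 1.22 and 3.63 in PC9. ICAM2, an adhesion ligand of LFA-1, had a peak of 3.01 and was at 0 and 0.0889 in CL1-5 and at 2.02 and 2.64 in PC9. Both had peaks in both libraries labelled CL1-5. Of the 27 genes, 3 were at least 2-fold higher in CL1-5 and 6 in PC9, beside 4.95% and 7.05% of all genes.

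For antigen presentation, 12 of 19 listed genes were matched, and ERAP2, a peptide-trimming protease of the endoplasmic reticulum, had a peak only in Mock (3.47) by both readings. Its FPKM was 0.447 and 0.749 in CL1-5 and 7.20 and 8.08 in PC9. All 10 matched genes of the DNA methylation machinery had a promoter peak in both libraries by transcript starts, and 8 by listed gene with 2 only in Mock. None was 2-fold changed in either line. TDG, a DNA glycosylase of demethylation, had fold enrichments of 11.7 in Mock and 11.3 in DAC. Of 19 genes of the AP-1 and TEAD pathways, all 19 had a peak in both libraries by transcript starts and 17 by listed gene, beside 81.8% and 69.9% of all genes. Of these 19, 0 in CL1-5 and 6 in PC9 were at least 2-fold higher, beside 4.95% and 7.05% of all genes. Among 20 tumour suppressors known for methylation in lung cancer, 16 had a promoter peak in both libraries by listed gene, beside 69.9% of all genes. At least 2-fold higher after DAC were 1 in CL1-5 and 4 in PC9, beside 4.95% and 7.05% of all genes. CXCL14 had a peak only in DAC (2.72), and SFRP2 and SFRP4, secreted Wnt inhibitors, had one only in Mock (4.07 and 4.11). CXCL14 was listed at 0 in all 4 mRNA libraries. Lung lineage genes had a promoter peak in both libraries in 6 of 7 by listed gene and in 7 of 7 by transcript starts, beside 69.9% and 81.8% of all genes.

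The cytoskeletal genes that the study singled out were chosen on these lines, so their direction is not independent. Of 15 matched, 8 had a promoter peak in both libraries by listed gene, 3 only in DAC, 3 only in Mock and 1 in neither. By transcript starts 12 had one in both, beside 81.8% of all genes, EVPLL only in DAC, and FES and KRT3 only in Mock. At least 2-fold higher after DAC were 6 in CL1-5 and 5 in PC9, beside 4.95% and 7.05% of all genes. CORO1A, an actin-binding protein of leukocytes, had fold enrichments of 3.87 in Mock and 3.86 in DAC, and an FPKM of 2.48 and 5.99 in CL1-5 and of 0.938 and 2.52 in PC9. HCLS1, a cortactin-like actin regulator, had 3.63 and 3.06, with an FPKM of 0.174 and 0.412 in CL1-5 and of 0.0378 and 1.97 in PC9. FES, a tyrosine kinase, had a peak of 3.12 in Mock only, while its FPKM was 0.174 and 1.35 in CL1-5. NES, an intermediate filament protein, had 2.82 and 2.54 and went from 0.119 to 7.13 in CL1-5 and from 8.22 to 16.3 in PC9. DES, another intermediate filament protein, had a peak of 3.53 in DAC over its TSS and, by transcript starts, one of 3.01 in Mock nearby. For microtubule genes the study reported the opposite direction, a general fall after DAC, and named PLK1 among them. TUBE1, a tubulin, was at 3.70 and 2.74 in CL1-5, and PLK1, a mitotic kinase, at 35.3 and 25.6 in PC9, on the FPKM scale. Each is given here only for the line named.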

How the data were processed

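Per the study's methods and the submitters' processing notes, the authors mapped adapter-trimmed Omni-ATAC-seq reads to hg19 with BWA 0.7.17-r1188, removed duplicates (Picard 2.21.4, SAMtools 1.9) and mitochondrial reads, called broad peaks in each library with MACS2 2.2.5 and annotated them with ChIPseeker 1.20.0. The deposited peak lists hold, per peak, a fold enrichment (a ratio over the local background), −log10 p-values and −log10 q-values, a score, the distance to the nearest TSS and a gene. The deposited mRNA table holds FPKM, which the authors made with DESeq2 1.24.0; no raw counts were used. The authors' own mean signal over all libraries, fold changes and p-values in that table were not used. The number of columns without a sample was 0.

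Overlaps, counts and medians were computed with Python 3.11.15, pandas 2.3.3 and numpy 2.4.6, and the overlap function was tested on simulated peaks and against bedtools 2.31.1. A gene symbol listed more than once kept the row with the highest mean FPKM. Changes are log2(FPKM + 0.1), DAC minus Mock. With 1 library a side no test was run. Samples were grouped by their labels. GENCODE v44lift37 gave transcript starts, exons and gene positions. Distal sequences were chosen among peaks off chromosome 8.

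The members and the gene lists were chosen with earlier results of these data known. Named were, by rule, the 8 promoter peaks and 5 distal peaks of highest fold enrichment in each 1-list class, the 8 genes with a promoter peak only in DAC and the largest rise in both lines and the 8 in CL1-5 alone, the 5 genes of highest FPKM expressed in 1 line and silent in the other, list members with a peak in 1 library, and the study's cytoskeletal genes; not all are described. GTSF1, PAGE2, TEX11, COL6A3, IFITM1, the genes with the most 1-list peaks, the transcript-start reading and the stretch of chromosome 9 were added after their values were seen.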

Additional observations from a re-analysis of the deposited data

How the results depend on the processing

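No paired analysis was possible because each group held 1 library and no result came from a test. For the share of DAC peaks only in DAC (43.3%), requiring 50% of a peak to be covered gave 52.3%, equal peak numbers 32.8% by −log10 p and 37.2% by fold enrichment, and a −log10 q of at least 2 gave 31.4%. For Mock peaks only in Mock (27.0%) the values were 33.6%, 32.3%, 36.8% and 20.5%. For peaks only in DAC within 3000 bp of a TSS (10.5%) they were 11.6%, 11.2%, 8.02% and 12.9%, and 5.48% within 1000 bp. The share of CL1-5-expressed genes with a promoter peak in Mock stayed between 81.9% and 93.8%. That of PC9-expressed genes (51.7%) was 30.8% within 1000 bp, 35.8% with silent set under 0.01, 36.4% at a −log10 q of at least 2 and 60.8% by GENCODE transcript starts, and remained under the share of CL1-5-expressed genes in each. The median change of genes with a promoter peak only in DAC in CL1-5 (0.10) was 0.014 without a filter, 0.024 at a mean FPKM of at least 1 and 0.34 by transcript starts. In PC9 (0.13) it was 0.053, -0.025, which is below 0, and 0.45. Transcript starts were added after the data were seen. The other 16 alternatives stayed within the counting interval. Depth is unknown, so a peak absent from a list may lie just under the caller's threshold.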
